A study of Mus musculus with 15 samples.

Results

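The genes described here are 9 markers of the B-cell lineage in the mouse ileum: Cd79a, Cd79b, Ms4a1, Cr2 and Pax5 of the follicular B cell, Mzb1, Jchain and Igha of the antibody-secreting plasma cell, and the sialyltransferase St6gal1, which both B cells and epithelium can make. They were chosen by name, with earlier results of these data known, so shares of members set beside shares of all genes are a description. Their Ensembl identifiers were looked up among the 37620 identifiers of the deposited count tables. A row was found for 8 of the 9. The annotation's identifier for Igha (ENSMUSG00000095079, chromosome 12) matched no row, so Igha has no value here.

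Lymphoid follicles of the ileum, gathered in Peyer's patches or scattered singly, are packed with naive and germinal-centre B cells held on a net of follicular dendritic cells. B cells that switch there to IgA leave as plasmablasts and settle as plasma cells in the lamina propria of the villi, along the whole gut wall. A piece of ileum therefore holds follicular B cells only where it includes a follicle, but holds plasma cells throughout. In these cells Cd79a and Cd79b encode the signalling chains of the B-cell receptor, Ms4a1 the surface protein CD20, Cr2 the complement receptor CD21 (also made by follicular dendritic cells), and Pax5 the transcription factor that keeps B-cell identity. Mzb1 is a chaperone of the plasma cell's endoplasmic reticulum, Jchain encodes the chain that joins IgA or IgM into polymers, and St6gal1 adds sialic acid to glycans, CD22 ligands among them.

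The 15 libraries hold total RNA of the ileum of adult mice, all of which had received tamoxifen (10 mg) by gavage, with 2 gavages a day on alternate days of a 5-day period. The label mutant means Rfx6f/f with Vilin-CreERT2, a tamoxifen-activated Cre whose promoter drives it in the intestinal epithelium and not in lymphocytes. Controls had no Cre: they were Rfx6f/f in the 3 libraries of 8 days, and Rfx6f/f (replicates 1 and 4) or Rfx6f/+ (replicates 2 and 3) in the 4 libraries of 3 months. The mutant label was carried by 4 libraries at each time, counted from this treatment. Each library is a sample of its own, but the labels do not say how each piece of ileum was cut.

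In units of 1000000 counts, the libraries held 30.5 to 54.5 at 8 days and 26.1 to 36.3 at 3 months. Levels are given as counts per 1000000 (CPM), scaled by TMM within the cohort of each time, and errors of fold changes are SE. Rfx6, the targeted transcription factor of hormone-producing cells, did not check the labels. In CPM it stood at 1.61, 1.35 and 1.55 in the 8-day controls and at 1.80, 2.05, 1.57 and 1.43 in the mutant-labelled libraries of that time. At 3 months it was 1.77, 1.60, 1.48 and 1.51 in controls and 3.40, 2.38, 2.37 and 2.31 in mutant-labelled libraries, so it was not lower under the mutant label at either time (at 3 months it was higher by log2 0.72, edgeR adjusted p = 0.0347), and libraries are called mutant-labelled by their label alone. Markers of ileal epithelium (7 genes, among them the bile-acid binding protein Fabp6 and villin, Vil1) were present in every library. They summed to 10489 to 11778 CPM in controls and 9322 to 10633 CPM in mutant-labelled libraries at 8 days, and to 10218 to 11752 CPM in controls and 7179 to 10528 CPM in mutant-labelled libraries at 3 months.

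Among controls of 3 months, Jchain was the most abundant member per kilobase of exon, at a mean of 925 CPM per kilobase. Mzb1 (24.8) and Cd79b (20.6) followed, then Cd79a (13.1), St6gal1 (11.8), Ms4a1 (5.65), Cr2 (2.87) and Pax5 (0.71). Jchain stood apart from Mzb1 in every library, as did St6gal1 from Ms4a1 and Cr2 from Pax5, while the libraries of all other neighbours in this order overlapped. In controls of 8 days the same scale gave 234 for Jchain, 7.45 for Mzb1, 7.09 for St6gal1, 5.07 for Cd79b, 4.07 for Cd79a, 0.659 for Ms4a1, 0.487 for Cr2 and 0.187 for Pax5. Cohort and time cannot be told apart, and the cohorts were scaled separately, so levels at the 2 times are set side by side only.

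The 5 follicular members moved together from library to library, and promoter sequence was available for some of them. RefSeq promoters (GRCm38.p6) were used for 5 of the 8 genes: Cd79a, Cr2, Pax5, Jchain and St6gal1. They were windows of 300 bases from 250 before to 50 after the start, with 3 windows for St6gal1. Promoters of Cd79b, Ms4a1 and Mzb1 were not searched, so Jchain alone stands for the plasma-cell members here. Each window was searched on both strands for the letters CAGGTG, an E-box of the kind that E2A proteins bind. Cd79a held 1 match at position -154 and Cr2 1 match at position -88 from the start, while Pax5 and St6gal1 held 0. Jchain had its single match at position 5, after the start. The letters occur in 20.2% of all 32851 promoter windows, so a match is a description and not a site. The stretches below show the matches of Cd79a and Cr2, with the E-box in capitals (as CACCTG where it lies on the other strand), and for contrast the bases before the start of Jchain, which hold none; Cd79a is cut before the nearest annotated exon, 116 bases ahead of its RefSeq start.
Cd79a, chr7:24897247-24897380, plus strand: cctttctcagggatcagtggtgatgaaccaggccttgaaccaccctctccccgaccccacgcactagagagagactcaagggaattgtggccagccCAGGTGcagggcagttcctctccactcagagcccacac
Cr2, chr1:195176720-195176969, minus strand: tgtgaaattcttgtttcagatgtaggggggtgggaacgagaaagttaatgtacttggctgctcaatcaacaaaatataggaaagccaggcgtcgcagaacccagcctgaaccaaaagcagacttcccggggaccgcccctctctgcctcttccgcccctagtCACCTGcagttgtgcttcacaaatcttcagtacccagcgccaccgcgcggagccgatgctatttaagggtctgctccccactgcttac
Jchain, chr5:88527898-88528147, minus strand: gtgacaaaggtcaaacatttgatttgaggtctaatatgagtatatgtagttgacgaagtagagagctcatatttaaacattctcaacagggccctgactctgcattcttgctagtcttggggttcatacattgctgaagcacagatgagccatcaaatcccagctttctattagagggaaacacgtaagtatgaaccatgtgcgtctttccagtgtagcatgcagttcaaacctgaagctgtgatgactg
The other motifs searched were the Ets core AGGAAGT, found in Cd79a at position -55 and in 9.35% of all windows, and the octamer ATTTGCAT, found in none of the 5 genes and in 1.74% of all windows.

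At 8 days the follicular B-cell genes were low in all 3 controls and in 1 of the 4 libraries labelled mutant, and high in the other 3. Ms4a1 (CD20) stood at 1.16, 3.63 and 7.45 CPM in the controls and at 1.89, 21.3, 39.8 and 46.3 CPM in mutant-labelled replicates 1 to 4. Replicate 1 lay inside the control range, and replicates 2 to 4 lay above every control. Cd79a gave 4.31, 5.20 and 8.26 CPM in controls against 6.0, 16.8, 37.8 and 45.7 CPM in the mutant-labelled libraries. Cd79b, its partner chain in the receptor, gave 4.02, 6.75 and 11 CPM against 5.04, 23.3, 41.0 and 51.0 CPM. Both chains thus put the same mutant-labelled library among the controls. Cr2 (CD21) measured 1.80, 3.14 and 6.92 CPM in controls, and 2.0, 18.6, 39.8 and 37.3 CPM under the mutant label. Pax5, the lineage's transcription factor, measured 0.837, 1.14 and 2.98 CPM in controls, and 0.945, 7.66, 20.1 and 19.4 CPM under the mutant label. For all 5 genes the groups overlapped through mutant-labelled replicate 1 alone, the highest mutant-labelled library exceeded the lowest by 7.62-fold (Cd79a) to 24.5-fold (Ms4a1), and control replicate 3 was the highest control.

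**Figure D1:**
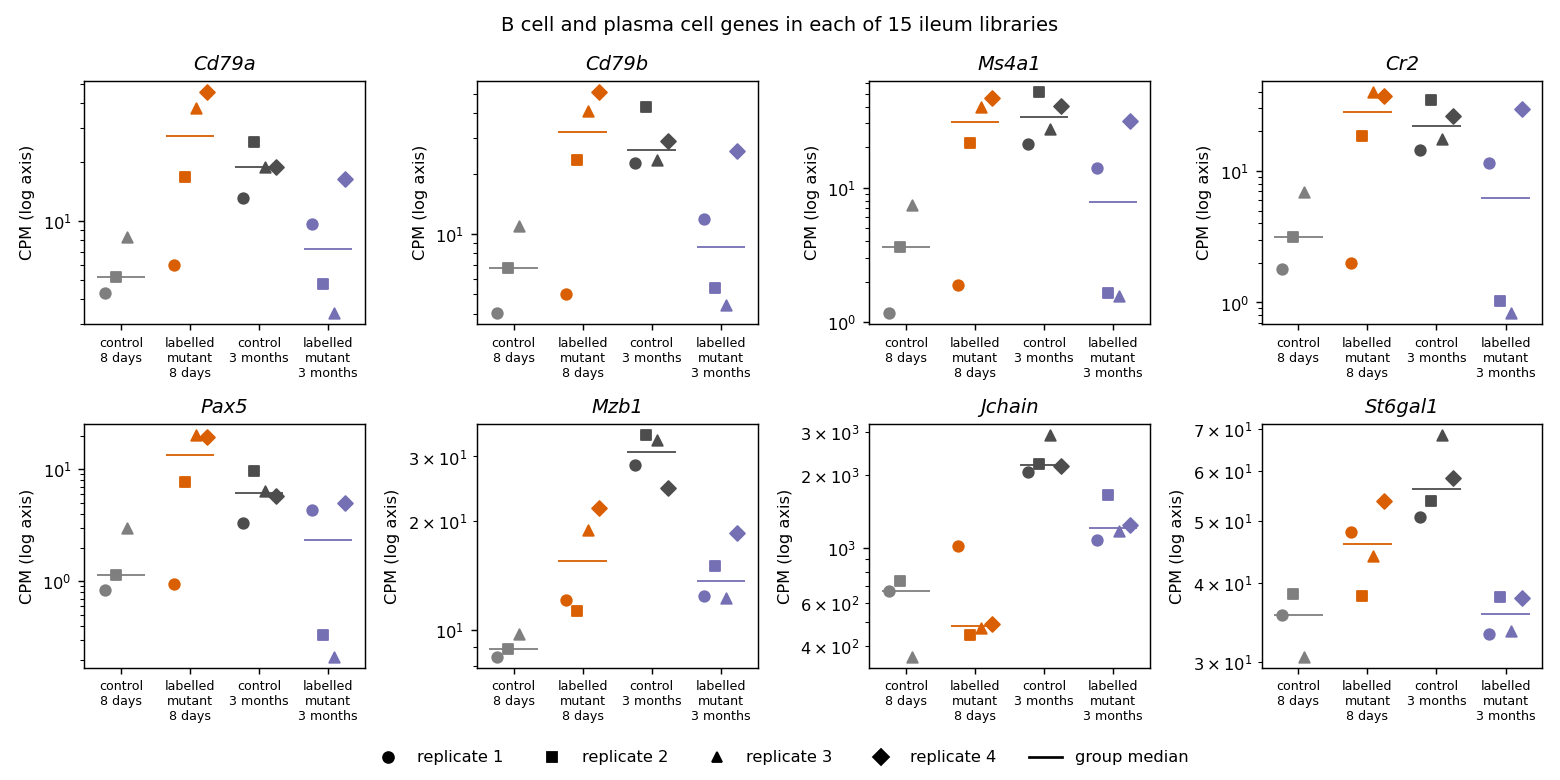
Each panel shows 1 gene, with CPM on a log axis against the 4 groups; a point is a library, its shape the replicate number, and the line the group median. For Ms4a1, replicate 1 of the 8-day mutant-labelled libraries (1.89 CPM) sits among the controls, and replicates 2 and 3 of the 3-month mutant-labelled libraries (1.65 and 1.57 CPM) sit far below replicates 1 and 4 (14.0 and 31.4 CPM), whereas for St6gal1 and Jchain at 3 months every mutant-labelled library lies below every control.

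In the edgeR quasi-likelihood test with Benjamini-Hochberg adjustment over 17493 genes, 0 of the 8 members passed an adjusted p of 0.05 at 8 days, where 0.0915% of all genes passed. Fitted fold changes of the follicular genes were large but wide: log2 2.70 ± 0.95 for Ms4a1 (adjusted p = 0.472), 2.59 ± 0.87 for Cr2 (0.462), 2.82 ± 0.91 for Pax5 (0.460), 2.15 ± 0.62 for Cd79a (0.460) and 2.03 ± 0.68 for Cd79b (0.462). Before adjustment, 7 of 8 members had a p under 0.05, against 8.8% of all genes. DESeq2 called 1 member, Mzb1 (adjusted p = 0.0356), and 1.02% of all genes, and limma-voom called 0 members and 0.0915% of genes. Without mutant-labelled replicate 1, a library singled out after its low values in these genes were seen, all 5 follicular genes passed in edgeR, with adjusted p from 0.0397 to 0.0485 and log2 fold changes from 2.38 to 3.20, while 1.15% of all genes passed. The higher level at 8 days is therefore a statement about 3 of 4 libraries. More or fewer B cells in a sample cannot be told apart from more or less RNA per B cell in these bulk values.

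The plasma-cell members did not share this split at 8 days. Jchain was 671, 736 and 361 CPM in controls and 1021, 441, 471 and 492 CPM in the libraries labelled mutant, where replicate 1, the library lowest in Ms4a1, was the highest. Its groups overlapped and its log2 fold change was 0.041 ± 0.34 (edgeR adjusted p = 0.991). Mzb1 stood at 8.47, 8.89 and 9.79 CPM in controls and at 12.1, 11.3, 18.9 and 21.6 CPM under the mutant label, so all 4 mutant-labelled libraries lay above all 3 controls. Such a separation upward was seen in 3.84% of all genes tested. The log2 fold change of Mzb1 was 0.82 ± 0.23, which did not pass (edgeR adjusted p = 0.460). St6gal1 gave 35.6, 38.4 and 30.6 CPM in controls and 48.1, 38.1, 44.0 and 53.8 CPM under the mutant label. Its groups overlapped by 1 library, with a log2 fold change of 0.40 ± 0.12 (edgeR adjusted p = 0.460).

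**Figure D2:**
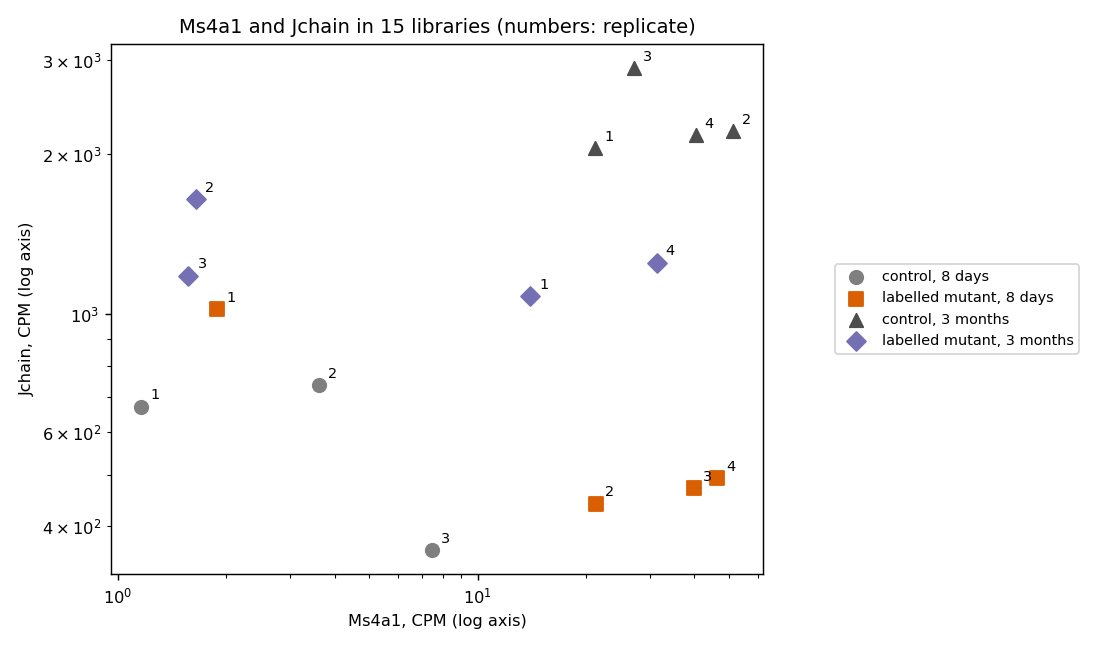
Each point is 1 of 15 libraries, with Ms4a1 on the horizontal and Jchain on the vertical log axis, both in CPM, and the replicate number beside it. The 8-day mutant-labelled library with the lowest Ms4a1 (1.89 CPM) has the highest Jchain of its cohort (1021 CPM), and the 3-month mutant-labelled libraries spread from 1.57 to 31.4 CPM in Ms4a1 but only from 1082 to 1645 CPM in Jchain.

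At 3 months the antibody-secreting cell genes and St6gal1 were lower under the mutant label, with no overlap between groups. Jchain stood at 2047, 2203, 2895 and 2169 CPM in controls and at 1082, 1645, 1181 and 1249 CPM in the mutant-labelled libraries. Every control exceeded every mutant-labelled library, and the fall was 0.85 ± 0.16 on the log2 scale, a control level 1.81 times that of the mutant-labelled libraries (edgeR adjusted p = 0.0182). Mzb1 was 28.5, 34.3, 33.2 and 24.6 CPM in controls against 12.4, 15, 12.3 and 18.5 CPM. It fell by 1.05 ± 0.16 on the log2 scale (edgeR adjusted p = 0.00915), and the control level was 2.07 times the mutant-labelled level. St6gal1 measured 50.7, 53.8, 68.3 and 58.5 CPM in controls and 33.2, 38.0, 33.6 and 37.9 CPM under the mutant label, the tightest group of any member, with a highest library only 1.14 times the lowest. The fall of St6gal1 was 0.70 ± 0.098 on the log2 scale (edgeR adjusted p = 0.00862). These 3 of 8 members were called lower, against 4.32% of all 17085 genes called lower and 9.28% called in any direction, and the same 3 had mutant-labelled libraries wholly below controls, against 9.53% of all genes.

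The calls of Jchain, Mzb1 and St6gal1 held with any single library left out (edgeR adjusted p up to 0.0494, 0.0374 and 0.0263), Jchain only just. These calls also held with DESeq2 (17.5% of all genes called) and limma-voom (9.49%). They did not hold against the 2 Rfx6f/f controls alone, where the falls were 0.71, 0.87 and 0.61 on the log2 scale with edgeR adjusted p of 0.149, 0.126 and 0.0746, and where 0 of 8 members and 0.205% of all genes passed. Exons of Mzb1 share 57.2% of their length with the gene SPATA24 on the same strand, for which the tables have no row, exons of St6gal1 share 4.1% with BC106179 on the opposite strand, and exons of Pax5 share 8.6% with Gm12462 and 5730488B01Rik on the opposite strand. Whether the counting used strand is not given in the sources used here, so reads of these neighbours could be counted with the members.

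The follicular B-cell genes at 3 months split the mutant-labelled libraries into a low pair, replicates 2 and 3, and a pair within or closer to the control range. Ms4a1 was 21.2, 51.3, 27.1 and 40.3 CPM in controls and 14.0, 1.65, 1.57 and 31.4 CPM in mutant-labelled replicates 1 to 4. Cr2 gave 14.4, 34.8, 17.6 and 26.4 CPM against 11.4, 1.02, 0.826 and 29.5 CPM, so its mutant-labelled libraries spanned 35.8-fold, the widest range of any member in any group. Pax5 gave 3.34, 9.61, 6.41 and 5.77 CPM in controls, and 4.37, 0.33, 0.213 and 4.95 CPM under the mutant label. For these 3 genes mutant-labelled replicate 4 lay inside the control range, and replicates 2 and 3 were lower than every control. The receptor chains followed the same order: Cd79a was 13.2, 25.5, 18.9 and 18.9 CPM in controls against 9.70, 4.79, 3.38 and 16.4 CPM, and Cd79b was 22.5, 42.8, 23.3 and 29.0 CPM against 11.9, 5.35, 4.45 and 25.8 CPM. All 4 control libraries held follicular transcripts, with Ms4a1 at no less than 21.2 CPM.

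None of the 5 follicular genes passed at 3 months in edgeR. The log2 fold changes were -1.16 ± 0.44 for Cd79a (adjusted p = 0.123), -1.32 ± 0.51 for Cd79b (0.131), -1.53 ± 0.83 for Ms4a1 (0.253), -1.14 ± 0.92 for Cr2 (0.439) and -1.37 ± 0.82 for Pax5 (0.298). Before adjustment, 5 of the 8 members had a p under 0.05, against 29.4% of all genes. Without mutant-labelled replicate 4, Cd79a (-1.69, adjusted p = 0.0372) and Cd79b (-2.03, adjusted p = 0.0253) passed and the other 3 follicular genes did not, while 7.59% of all genes passed. In that fit the log2 fold changes of Ms4a1, Cr2 and Pax5 were -2.62, -2.42 and -1.96, whereas that of Cr2 was -0.76 or -0.74 without replicate 2 or 3 of the same group. With limma-voom the 3 genes stood at -2.60, -2.54 and -2.48 (adjusted p = 0.0706, 0.106 and 0.103), so the size of their difference depended on the method and on single libraries. DESeq2 and limma-voom called 0 of these 5.

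**Figure D3:**
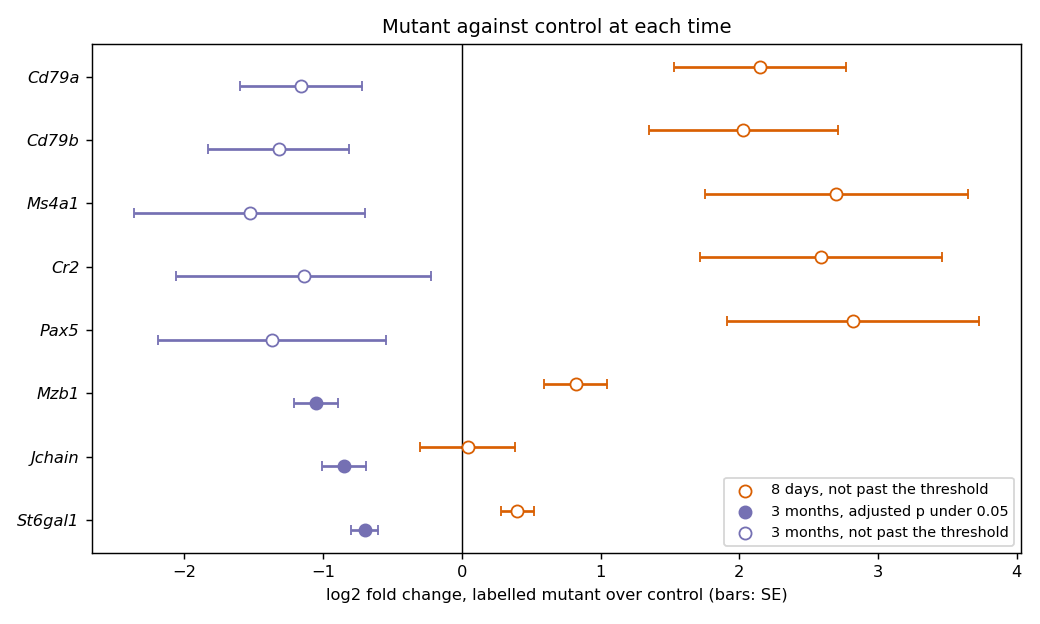
Fitted log2 fold changes of the 8 genes, libraries labelled mutant over control, at 8 days and at 3 months; bars are SE and filled points passed an adjusted p of 0.05. Every gene lies to the right at 8 days, with Jchain at 0.041, and to the left at 3 months, where only Mzb1, Jchain and St6gal1 are filled.

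The contrast between the times was tested in a fit of all 15 libraries. The effect of the mutant label was lower at 3 months than at 8 days by 1.89 ± 0.30 for Mzb1 (log2 -1.89, edgeR adjusted p = 0.0204) and by 1.12 ± 0.17 for St6gal1 (log2 -1.12, edgeR adjusted p = 0.0145). These 2 of 8 members compare with 0.785% of all 17959 genes called and 0.406% called negative. Before adjustment, 8 of 8 members and 16.6% of all genes had a p under 0.05. For the follicular genes the difference was larger and less certain, from -3.33 ± 0.83 for Cd79a (edgeR adjusted p = 0.0629) to -4.25 ± 1.40 for Ms4a1 (0.132). Jchain had the smallest difference, -0.91 ± 0.40 (edgeR adjusted p = 0.262). The call of Mzb1 was lost without control replicate 2 or 3 of 8 days (adjusted p = 0.0650 and 0.0678) or control replicate 3 of 3 months (0.0507), and that of St6gal1 without control replicate 3 of 8 days (0.0669). Both were lost with Rfx6f/f controls only (0.121 and 0.0968), where 0.0275% of all genes passed, and held with limma-voom (0.228% of genes) and DESeq2 (5.64%). DESeq2 also called Cd79a, Cd79b and Ms4a1 (adjusted p = 0.00668, 0.0184 and 0.0496). In edgeR, Cd79a, Cd79b, Ms4a1 and Pax5 passed without mutant-labelled replicate 1 of 8 days (adjusted p from 0.0112 to 0.0482, with 4.19% of all genes), and Cd79a and Cd79b without mutant-labelled replicate 4 of 3 months (0.0372 and 0.0382, with 2.21%). Of the 15 plasma-cell genes listed besides the members, 3 also differed between the times: Tnfrsf13b (-1.95 ± 0.32, edgeR adjusted p = 0.0224), Slamf7 (-1.21 ± 0.21, 0.0264) and Irf4 (-1.38 ± 0.27, 0.0450), a transcription factor of plasma cells. All 3 calls were lost with Rfx6f/f controls only (0.121, 0.157 and 0.198), and without control replicate 2 or 3 of 8 days or control replicate 2 or 3 of 3 months (adjusted p up to 0.0790, 0.0829 and 0.129 with 1 library left out). Of 22 alternatives, 6 ended the call of Tnfrsf13b, 8 that of Slamf7 and 12, limma-voom among them, that of Irf4. In the other lists the difference was called for the co-activator Pou2af1 (-2.15 ± 0.45, edgeR adjusted p = 0.0487), the T-cell gene Trac (-2.10 ± 0.43, 0.0487) and the sialyltransferase St3gal6 (0.89 ± 0.14, 0.0204). Both Pou2af1 and Trac lost the call in 13 of 22 alternatives, and St3gal6 in 3, which were Rfx6f/f controls only (0.0968) and control replicate 2 or 3 of 8 days left out (up to 0.0790).

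The balance of follicular to plasma-cell transcripts varied by library more than by group. As the mean log2 CPM of the 5 follicular genes minus that of Mzb1 and Jchain, it was -4.92, -4.38 and -3.06 in controls of 8 days and -5.17, -2.09, -1.45 and -1.44 in the mutant-labelled libraries. At 3 months it was -4.21, -3.25, -4.17 and -3.49 in controls and -3.54, -6.04, -5.90 and -3.04 in mutant-labelled libraries. The groups overlapped at both times. Mutant-labelled libraries of 3 months lay on both sides of the controls, although Jchain was lower in all 4 of them.

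The genes whose level followed the 5 follicular members most closely, after the mean of each group was removed, included other B-cell genes. The ranking covered 13525 genes with a mean of at least 1 CPM. It left out the members, unnamed, predicted or clone-named genes, mitochondrial genes, and immunoglobulin and T-cell receptor genes. Over 15 libraries the Pearson correlation was among the highest for H2-Ob (0.993), for Fcmr (0.992), which binds IgM, and for Cxcr5 (0.992), the receptor that guides B cells into follicles. The list went on with Siglecg (0.986), Blk (0.986), Cacna1i (0.985), H2-Eb2 (0.984), the BAFF receptor Tnfrsf13c (0.984) and Chst3 (0.983). On the same measure Mzb1 stood at 0.627, Jchain at -0.659 and St6gal1 at -0.0244. Of the listed plasma-cell genes called for the difference between times, Tnfrsf13b stood at 0.657, Irf4 at 0.199 and Slamf7 at 0.0146. Those of that list not called for it ran from -0.844 (Xbp1) to 0.666, with Tnfrsf17 at -0.757 and Prdm1 at -0.49. Genes called for that difference thus include some that moved with the follicular members. These values are a description and carry no p: the correlated genes were counted in the same libraries and the same pieces of tissue.

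Lists of other genes of the lineage showed where the members stand. At 8 days 0 genes of any list passed in edgeR; the median log2 fold change was 1.08 over 15 receptor and signalling genes (15 positive), 2.30 over 11 homing and survival receptors (11 positive), 0.77 over 8 germinal-centre genes (8 positive) and 0.10 over 15 plasma-cell genes (10 positive), beside -0.002 over all genes tested. Follicle stroma, the cells that hold B cells in place, had a median of 1.23 over 9 genes (8 positive). Mfge8, made by follicular dendritic cells, measured 56.8, 75.7 and 91.8 CPM in controls and 68.1, 158, 239 and 275 CPM in the mutant-labelled libraries, so the same replicate 1 stood low. Without that library edgeR called 6 of 15 receptor, 8 of 11 homing, 4 of 8 germinal-centre, 4 of 9 stroma and 1 of 15 plasma-cell genes, all higher, against 1.03% of all genes called higher. Since that library was left out for its low values in such genes, these counts are a description. T-cell genes had a median of 0.47 (10 of 11 positive), and their summed level ran from 41.7 to 61.3 CPM in controls and from 50.6 to 90.9 CPM in mutant-labelled libraries. Smooth muscle genes had a median of 0.36 (5 of 5 positive), with sums of 1632 to 2552 CPM in controls and 1995 to 3231 CPM in mutant-labelled libraries. Whether more follicle tissue in 3 of the samples, or other tissue content, has a part in the B-cell result was not tested.

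Of 7 immunoglobulin constant genes tested, 7 had a positive log2 fold change at 8 days (median 2.03) and 7 a negative one at 3 months (median -0.85). In the within-group correlation with the follicular members, Igkc alone was negative (-0.628), and the others ran from 0.228 to 0.971. The most abundant, Igkc and Ighm, differed in this way. Ighm, the constant region of IgM, measured 20.5, 18.7 and 47.5 CPM in 8-day controls and 15.7, 120.4, 218 and 214 CPM under the mutant label, and was high in the same 3 libraries as Ms4a1. Igkc, the kappa light chain that plasma cells secrete in bulk, measured 834, 807 and 477 CPM against 1146, 487, 586 and 653 CPM, highest in mutant-labelled replicate 1 and lowest in control replicate 3, as was Jchain. At 3 months Igkc was 1572, 1631, 2159 and 1437 CPM in controls and 748, 1122, 883 and 909.9 CPM in the mutant-labelled libraries, and it fell by 0.89 ± 0.16 on the log2 scale (edgeR adjusted p = 0.0159), a call that was lost with Rfx6f/f controls only (0.135). Ighm overlapped between groups at that time, with 156 CPM in mutant-labelled replicate 4 and 17.0 CPM in replicate 2, and was not called (adjusted p = 0.400).

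**Figure D4:**
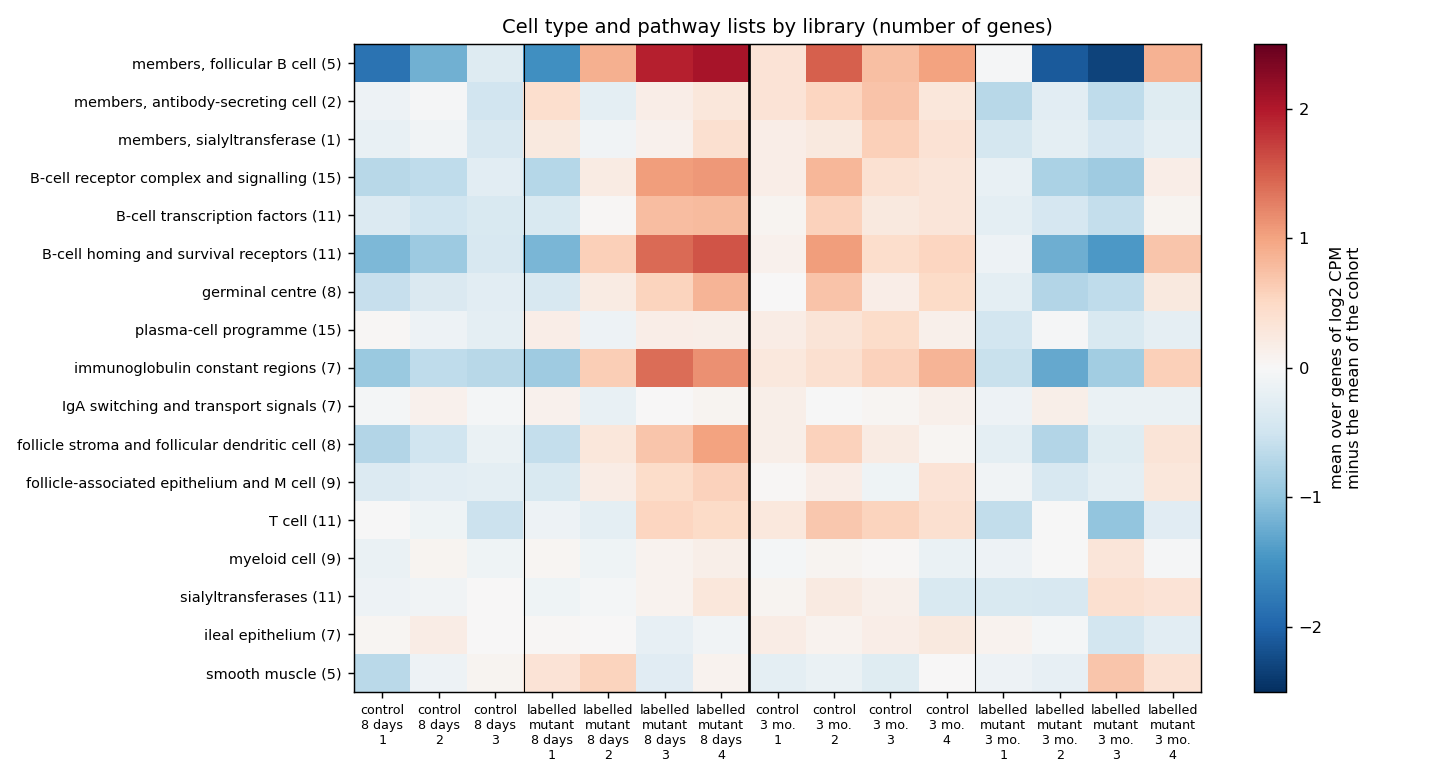
Rows are gene lists with the number of genes shown, columns the 15 libraries (vertical lines part the groups, the thick one the cohorts), and colour the mean over a list's genes of log2 CPM minus the mean of the cohort. The follicular row runs from -1.84 to 2.07 at 8 days, and the receptor, homing and immunoglobulin rows share its colours, while the plasma-cell programme stays pale in the 8-day libraries.

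At 3 months other plasma-cell genes were lower beside Jchain and Mzb1. All 15 of the list had a negative log2 fold change (median -0.61, beside 0.0077 over all genes), and 5 were called lower, where 4.32% of all genes tested were. They were Slamf7 (-0.93, edgeR adjusted p = 0.0134), a surface marker of plasma cells, Prdm1 (-0.61, 0.0369), the transcription factor that drives plasma-cell fate, the receptors Tnfrsf13b (-0.76, 0.0383) and Tnfrsf17 (-0.75, 0.0438) for the survival factors BAFF and APRIL, and Eaf2 (-0.47, 0.0396). The most abundant genes of the list, Xbp1 (-0.36, 0.0711), a transcription factor of secretory cells, and Sdc1 (-0.20, 0.152), which epithelium also makes, did not pass in edgeR. DESeq2, with 17.5% of all genes called in any direction, called 13 of the 15 lower, Xbp1 among them. With limma-voom (9.49% of all genes) 6 were called lower. Tnfsf13, which encodes APRIL, was called lower as well (-0.60, 0.0440), as 1 of 7 tested genes for IgA switching and transport. Pigr, the epithelial receptor that carries polymeric IgA into the lumen, was at -0.58 ± 0.18 and did not pass in edgeR (0.0730), though DESeq2 called it lower. Among 15 receptor and signalling genes 3 were called lower, the adaptor Blnk (-0.58, 0.00878), the kinase Lyn (-0.74, 0.0192) and Pik3ap1 (-0.72, 0.0352). Of 11 B-cell transcription factors 3 were lower: Irf8 (-0.88, 0.0117), Ciita (-0.95, 0.0126), the switch for MHC class II genes, and the co-activator Pou2af1 (-0.89, 0.0215). Myeloid cells also express Lyn, Irf8 and Ciita. Of these called genes, Prdm1, Tnfrsf13b, Eaf2, Tnfsf13, Lyn and Pik3ap1 lost the call when control replicate 1, 2 or 3 was left out, with adjusted p up to 0.098, 0.0964, 0.0995, 0.110, 0.0591 and 0.0863, and Pou2af1 lost it without control replicate 3 (0.0598). Tnfrsf17 lost its call without any 1 library other than mutant-labelled replicate 2 (adjusted p up to 0.116) and without a filter on low counts. With Rfx6f/f controls only, 0 genes of these lists passed. DESeq2 called 6 of the 15 receptor and signalling genes and 4 of the 11 transcription factors lower.

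T-cell genes moved with the antibody-secreting cell genes at 3 months. All 11 had a negative log2 fold change, 7 of them called (beside 4.32% of all genes called lower), among them Cd3d (-1.06, edgeR adjusted p = 0.0238) and Trac (-1.36, 0.0277), parts of the T-cell receptor complex, Cd8b1 (-1.32, 0.0342), Cd5 (-1.45, 0.0400) and Cd8a (-1.35, 0.0426). Cd4 was at -0.13 and did not pass (0.386). DESeq2 called 9 of the 11 genes lower (17.5% of all genes called in any direction) and limma-voom 7 (9.49%). The summed level of the list ran from 108 to 138 CPM in controls and from 44.2 to 88.1 CPM under the mutant label, and 0 of the 11 genes were at 0 in any library. Without control replicate 1, 2 or 3 the calls of Cd3d, Trac, Cd8b1, Cd5 and Cd8a were lost (adjusted p up to 0.0704, 0.0789, 0.0913, 0.0991 and 0.105). In the myeloid list 2 of 9 genes were called higher, beside 4.96% of all genes, Csf1r (0.60, 0.0212) and Mpeg1 (0.48, 0.0408), and 0 were lower; both calls were lost without control replicate 1, 2 or 3 (up to 0.0591 and 0.105). In the smooth muscle list 0 of 5 passed, but 5 of 5 were positive (median log2 fold change 0.37). Summed levels were 1389 to 1683 CPM in controls and 1527 to 2721 CPM in mutant-labelled libraries. With Rfx6f/f controls only, 0 genes of the T-cell and myeloid lists passed. In the epithelial list 6 of 7 genes had a negative log2 fold change and 1, Fabp6, was called lower (-1.44, edgeR adjusted p = 0.00873). Fabp6 measured 2006, 2708, 2439.7 and 2536 CPM in controls and 960.4, 871, 572 and 1179 CPM in mutant-labelled libraries, and its call too was lost with Rfx6f/f controls only (0.119). The part of epithelial content, of lymphocyte number, or of tissue layers in the sample in the fall of Jchain, Mzb1 and St6gal1 was not tested.

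Enzymes of St6gal1's class moved in both directions at 3 months. Of 11 other sialyltransferases tested, 6 had a positive and 5 a negative log2 fold change. Beside 4.96% of all genes called higher and 4.32% called lower, 2 were called higher, St3gal6 (0.81 ± 0.088, edgeR adjusted p = 0.00286) and St6galnac2 (0.76 ± 0.14, 0.0185), and 1 lower, St8sia1 (-0.54 ± 0.14, 0.0489). The call of St6galnac2 was lost without control replicate 1, 2 or 3, and that of St8sia1 without any 1 library (up to 0.0591 and 0.126); with Rfx6f/f controls only, St3gal6 alone of the list passed (0.0458). St3gal6, which adds sialic acid in another linkage, measured 41.3, 35.4, 44.4 and 43.4 CPM in controls and 69.9, 64.5, 77.8 and 75.4 CPM in the mutant-labelled libraries. In mutant-labelled replicates 2 and 3, where Ms4a1, Cr2 and Pax5 were lowest, St6gal1 kept 38.0 and 33.6 CPM, close to its level in replicates 1 and 4.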

How the data were processed

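The authors deposited unnormalized counts for each Ensembl gene in 15 ileum libraries, with 1 table per cohort. Per the submitters' processing notes, bcl2fastq 2.17.1.14, Bowtie 1.0.0, TopHat2 2.0.10, Bowtie2 2.1.0, HTSeq 0.6.1 and the build mm9 were used; annotation and strand handling are not given in the sources used here. Per the labels, libraries were rRNA-depleted total RNA, although the molecule is named as polyadenylated, and RNA came from either of 2 extraction methods with no record per sample.

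Symbols were taken from GENCODE M21 (GRCm38), which named 32897 of 37620 identifiers (87.45%; the rest held 0.675% of counts). That annotation differs in build from the files and served for names, lengths and exon overlaps; sequences are RefSeq's (GRCm38.p6). Replicates were numbered in deposit order. Within groups, counts differed beyond sampling noise (chi-square per degree of freedom of at least 12.1), so no library was merged. The labels do not state that each sample is a separate animal, so p-values measure only the spread between them.

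Each time was tested with edgeR 4.0.16 (R 4.3.3, limma 3.58.1) by the quasi-likelihood F test, two-sided, after filterByExpr (minimum count 10) and TMM scaling, with Benjamini-Hochberg adjustment at 0.05. On simulated counts with 200 genes at a log2 fold of 2 it recovered 92.5% for 8 days, over 17493 genes, 94.5% for 3 months, over 17085, and 80.5% for the difference between times, over 17959; of its calls, 4.15%, 7.35% and 2.42% were false. Each result was refitted with no filter or 10 counts in every library, with RLE scaling or the 20 most counted genes kept out of the scaling, in DESeq2 1.42.0 and limma-voom, over all 15 libraries at once, against Rfx6f/f controls alone, and leaving out 1 library at a time. Correlations and library means used log2(CPM + 0.5).

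The members and gene lists were chosen with earlier results of these data known. Genes named beside the members come from up to 4 called genes per direction of each list and comparison with the smallest p, the 2 most abundant genes of each list, and the 10 genes most like the follicular members, of which 1 is not reported here. All other called genes of this rule are named, and of the abundant genes that were not called only some. Tnfrsf17 falls outside this rule and was chosen after its value was seen. Figures were drawn with matplotlib 3.10.9.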

Additional observations from a re-analysis of the deposited data

Results flagged for a closer look

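Jchain in the 8-day libraries labelled mutant had 1 library far from the others: replicate 1 at 1021 CPM, beside 441, 471 and 492 CPM. This was 1 flag among 24 groups of 4 libraries examined, where chance gives about 1 in 20.

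The effect of the mutant label differed between the times for Mzb1 (difference -1.89 on the log2 scale, edgeR adjusted p = 0.0204) and for St6gal1 (difference -1.12, edgeR adjusted p = 0.0145). Mzb1 was higher in 4 of 4 mutant-labelled libraries than in any control at 8 days and lower in 4 of 4 at 3 months. For St6gal1 the highest control of 8 days (38.4 CPM) exceeded 1 mutant-labelled library, and at 3 months all 4 mutant-labelled libraries were below all controls.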

How the results depend on the processing

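The count of genes called at 8 days was 16 (6 higher, 10 lower). It was 178 with DESeq2, 27 without a filter, 25 in 1 fit of all libraries, and from 8 to 200 with 1 library left out, the highest without mutant-labelled replicate 1. At 3 months it was 1586 (848 higher, 738 lower), against 2989 with DESeq2, 36 with Rfx6f/f controls only and 391 to 1521 with 1 library left out. For the difference between times it was 141, against 1013 with DESeq2, 41 with limma-voom, 223 without a filter, 248 with 10 counts in every library, 5 with Rfx6f/f controls only and 10 to 749 with 1 library left out. The cause of these shifts was not tested.

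Of the members, only Jchain at 8 days changed sign, to -0.00036 with limma-voom, -0.22 without control replicate 3 and -0.33 without mutant-labelled replicate 1, within a range of -0.33 to 0.23 with 1 library left out. Calls of members that changed are given with the results. The filter of 10 counts in every library removed Pax5 at 3 months and from the difference between times. Pou2af1 at 3 months lost its call in 1 fit of all libraries (adjusted p = 0.0604). Beyond the controls named with the results, calls at 3 months were also lost without control replicate 4 (Prdm1, Tnfrsf13b, Eaf2, Pik3ap1, Cd5, Cd8a, Mpeg1), mutant-labelled replicate 1 (Tnfrsf13b, Eaf2, Tnfsf13, Pik3ap1, Trac, Cd8b1, Cd5, Cd8a, Mpeg1), mutant-labelled replicate 2 (Tnfrsf13b, Mpeg1), mutant-labelled replicate 3 (Prdm1, Tnfrsf13b, Eaf2, Tnfsf13, Pik3ap1, Trac, Cd3d, Cd8b1, Cd8a, Mpeg1) or mutant-labelled replicate 4 (Prdm1, Eaf2, Tnfsf13, Cd8b1, Cd8a). Tnfsf13 also lost its call without a filter, and St8sia1 without a filter, with limma-voom and in 1 fit of all libraries. For the difference between times, calls were further lost without control replicate 1 of 8 days (Tnfrsf13b, Irf4), mutant-labelled replicate 3 or 4 of 8 days (Slamf7, Irf4), control replicate 1 (Irf4), mutant-labelled replicate 1 (Irf4) or mutant-labelled replicate 3 (Slamf7, Irf4) of 3 months. No paired analysis was possible because replicate numbers only follow deposit order and the labels tie no animal of 1 group to another. Depth was thinnest for Pax5, with as few as 8 counts in a 3-month mutant-labelled library.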

Other observations

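St3gal4, the most abundant other sialyltransferase, was at 1170.4 to 1496 CPM in the 7 libraries of 8 days. At 3 months it was 914, 1389.7, 777 and 10.1 CPM in controls and 12.6, 14.6, 1434 and 965 CPM in the libraries labelled mutant, so 1 control and 2 mutant-labelled libraries stood near 10 CPM and the groups did not separate (edgeR adjusted p = 0.898). The low libraries are control replicate 4 and mutant-labelled replicates 1 and 2, which is not the division seen for the follicular B-cell genes.

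Cd55, a complement regulator placed in the list of homing and survival receptors, was the only gene of that list called at 3 months and was higher under the mutant label (log2 1.53 ± 0.37, edgeR adjusted p = 0.0379). This was 1 of 11 genes, beside 4.96% of all genes called higher. It was the only positive gene of the list, where 10 of 11 were negative (median -1.22). Cd55 measured 76.5, 63.5, 61.9 and 69.5 CPM in controls and 110.2, 108, 194 and 373 CPM in the mutant-labelled libraries. The call was lost with any 1 control, or mutant-labelled replicate 3, left out (adjusted p from 0.0621 to 0.101), and with Rfx6f/f controls only (0.253).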
